A study of Mus musculus with 23 samples.

Results

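The Mu-class glutathione transferases of the mouse are a family of 7 genes, Gstm1 to Gstm7, described here in 23 single neurons of the arcuate hypothalamus. The members were taken by gene symbol from a table of 23400 genes, and each had 1 row in it. Each neuron was a GFP-positive cell picked by hand from the dissociated arcuate nucleus of young adult vGLUT2-IRES-Cre::loxSTOPlox-L10-GFP mice of mixed background. In these animals Cre from the vGLUT2 locus removes a stop cassette and a ribosomal protein fused to GFP is made, so a cell that used the locus at any earlier stage can also be labelled. The cells came from 2 mice, which the labels do not tie to single cells, so the cells are described as 1 group with no replicates and no test between them. The titles carry the prefixes JCb5.2 (15 cells, numbered 1 to 15) and JCb6 (8 cells, numbered 16 to 23), which the labels do not explain. Each value is in FPKM, that is, fragments scaled by transcript length and library size.

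Glutathione transferases join the tripeptide glutathione to electrophilic compounds, among them products of lipid peroxidation, and so prepare them for export from the cell. The Mu-class enzymes are cytosolic dimers, and in the mouse their genes lie side by side. Gstm1 is known as an abundant liver enzyme and a target of the transcription factor NRF2, and in brain it is best known from glia, whereas mouse Gstm5 is known from brain and testis. The proteins and their genes are so similar that short reads from a shared stretch cannot be assigned to a single member.

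On mm10 the 7 loci spanned 149006 bp of chromosome 3, from 107895854 to 108044859. Gstm5 lay at 107895854 to 107898685 and was the only member on the plus strand. The other 6 were on the minus strand, in the order Gstm7 (107926334 to 107931745), Gstm6 (107938848 to 107943749), Gstm3 (107963696 to 107969174), Gstm2 (107981702 to 107986436), Gstm1 (108012250 to 108017973) and Gstm4 (108040408 to 108044859). Gaps between neighbouring loci were 7102 to 27648 bp. No member's locus overlapped another member, and an antisense gene, 4933431E20Rik, overlapped Gstm5.

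In the GENCODE transcripts each member had 8 exons and a coding sequence of 657 bases, except Gstm5 with 675. Gstm1 and Gstm3 were the most similar pair, with 588 of 657 aligned coding bases identical (89.5%). Among the 6 members other than Gstm5 the least similar pair was Gstm3 and Gstm4, at 79.1%. Gstm5 stood apart, with 67.9% to 70.5% of coding bases identical to those of the other members.

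The longest identical run between 2 members was 125 bases, shared by Gstm3 and Gstm6 at coding positions 169 to 293, counted from the A of the start codon. Gstm1 and Gstm3 shared a run of 112 bases, at positions 389 to 500. Next came Gstm1 and Gstm2 with 60 bases. A stretch of 60 bases from each of the runs that Gstm3 shares is printed because the values of Gstm3, given further on, are set beside those of the same members. Capitals mark bases that differ from Gstm3, and all sequences come from GENCODE transcripts of the mm10 genome, 5′ to 3′. The first stretch lies at coding positions 415 to 474 (424 to 483 in Gstm5), where Gstm1 does not differ from Gstm3.
Gstm3: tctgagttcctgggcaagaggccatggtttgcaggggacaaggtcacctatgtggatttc
Gstm1: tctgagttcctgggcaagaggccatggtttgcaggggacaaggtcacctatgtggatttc
Gstm7: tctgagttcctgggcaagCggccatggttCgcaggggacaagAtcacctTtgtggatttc
Gstm2: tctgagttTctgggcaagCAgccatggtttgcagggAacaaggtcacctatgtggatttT
Gstm6: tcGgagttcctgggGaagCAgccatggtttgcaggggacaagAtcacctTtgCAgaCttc
Gstm4: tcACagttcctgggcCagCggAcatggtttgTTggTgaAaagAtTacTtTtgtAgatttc
Gstm5: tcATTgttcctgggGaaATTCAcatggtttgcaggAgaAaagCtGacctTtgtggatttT
Gstm7 differed from Gstm3 at 4 of these bases, Gstm2 at 5, Gstm6 at 9, Gstm4 at 14 and Gstm5 at 15. The second stretch lies at coding positions 201 to 260 (210 to 269 in Gstm5), where Gstm6 does not differ from Gstm3.
Gstm3: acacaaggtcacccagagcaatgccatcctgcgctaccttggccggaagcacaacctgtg
Gstm6: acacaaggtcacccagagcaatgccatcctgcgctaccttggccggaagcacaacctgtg
Gstm2: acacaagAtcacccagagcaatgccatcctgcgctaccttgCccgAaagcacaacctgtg
Gstm7: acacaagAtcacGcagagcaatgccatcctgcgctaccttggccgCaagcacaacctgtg
Gstm4: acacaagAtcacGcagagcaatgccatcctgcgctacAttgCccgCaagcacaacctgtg
Gstm1: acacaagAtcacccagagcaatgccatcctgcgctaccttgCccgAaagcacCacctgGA
Gstm5: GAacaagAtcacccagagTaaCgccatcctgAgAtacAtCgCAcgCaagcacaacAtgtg
Here Gstm2 and Gstm7 differed at 3 bases each, Gstm4 at 5, Gstm1 at 6 and Gstm5 at 13. Gstm3 was thus identical to a different member in each stretch.

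Every 50-base window of each transcript was then looked up in the transcripts of the other members. Gstm3 shared 124 of its 1262 windows with Gstm1 (9.83%) and 76 with Gstm6 (6.02%), and none with the other 4 members. Seen from the other side, 10.0% of the windows of Gstm1 and 6.88% of those of Gstm6 were also in Gstm3. The remaining overlap was 11 windows between Gstm1 and Gstm2, and Gstm4, Gstm5 and Gstm7 shared no exact window with any member. When up to 2 mismatches were allowed, Gstm3 shared 284 windows with Gstm1, 97 with Gstm6, 32 with Gstm2 and 25 with Gstm7, and Gstm5 still shared 0. Gstm5 was thus the member that matched no other at either setting. The windows also matched annotated genes other than the 7 members. Gm8834 held 202 windows of Gstm3, 89 of Gstm1 and 24 of Gstm6, and Gstm2-ps1 held 215 of Gstm1 and 139 of Gstm3. Gm12499 held 56 windows of Gstm2, Gm6665 held 39 of Gstm2 and 11 of Gstm1, and Gm12494 held 54 of Gstm6. The read length is not given in the sources used here.

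**Figure D1:**
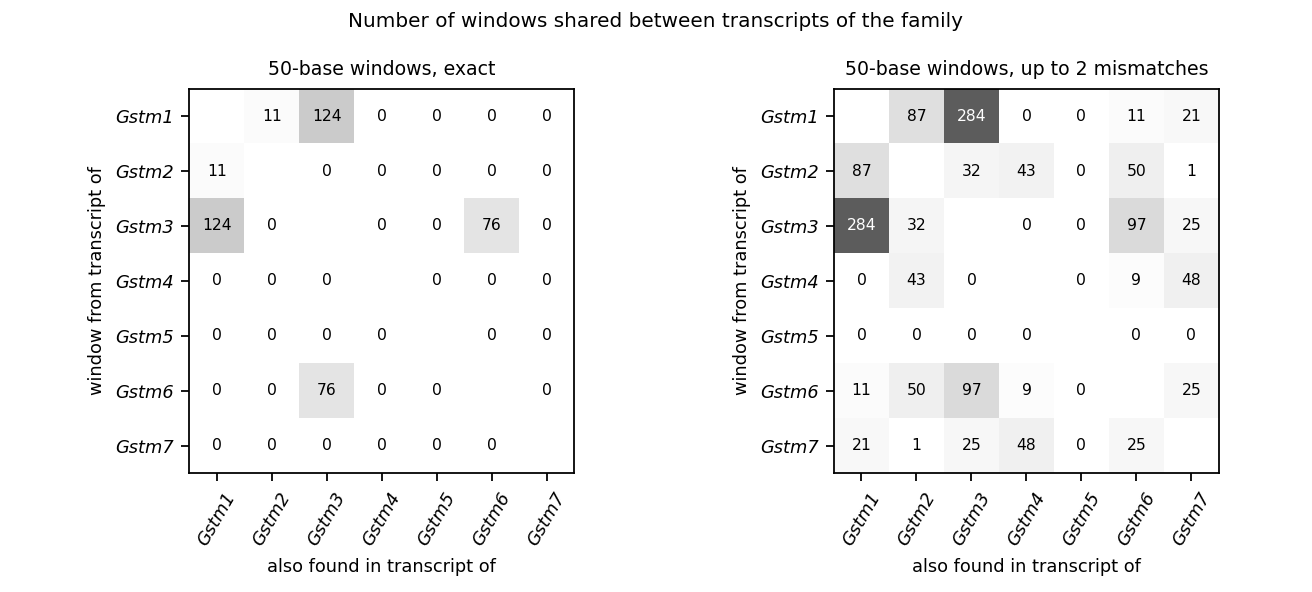
Number of 50-base windows of the transcript named at the left that also occur in the transcript named below, exact (left panel) and with up to 2 mismatches (right panel); darker cells hold more windows. In the left panel Gstm3 shares 124 windows with Gstm1 and 76 with Gstm6, and the row of Gstm5 holds 0 in both panels.

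All 7 members reached 1 FPKM in at least 1 cell, as did 63.7% of all genes in the table. In at least 12 of the 23 cells 5 members did so (Gstm1, Gstm3, Gstm5, Gstm6 and Gstm7), against 27.8% of all genes. Gstm1 and Gstm5 were at or above 1 FPKM in all 23 cells, against 7.2% of all genes, and Gstm5 alone was at or above 100 FPKM in all 23, against 1.11% of all genes. Shares of cells are given below with exact Clopper-Pearson 95% intervals, which cover the counting of cells only. The libraries hold no molecular identifiers, and copies made during amplification cannot be told from original molecules.

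Depth was estimated from the smallest steps of the values, each worth 1 fragment, as about 2410000 to 10100000 fragments per cell, with a median of about 5900000. These figures are approximate, because the effective lengths used upstream are unknown. Of 6 neuronal markers, Uchl1, Stmn2, Tubb3 and Snap25 reached 1 FPKM in all 23 cells, whereas Syt1 did so in 8 (median 0.341 FPKM) and Rbfox3 in 5 (median 0.346 FPKM). Their summed level, which Uchl1 and Stmn2 dominated, was 751 to 3011 FPKM. Slc17a6, which encodes vGLUT2, was at or above 1 FPKM in 22 cells (median 32.1 FPKM, highest 139 FPKM in cell 18) and at 0.520 FPKM in cell 11. Among 7 astrocyte markers none reached 1 FPKM in 12 cells, Aqp4, Aldh1l1, Slc1a3 and Gja1 reached it in none, and the summed level was 0.122 to 166 FPKM with a median of 0.568. The highest sum was in cell 12, where Gfap was at 165 FPKM. Summed levels of oligodendrocyte markers were 0.431 to 82.8 FPKM, those of tanycyte and ependymal markers 0.317 to 259 FPKM, those of microglial markers at most 8.86 FPKM and those of endothelial markers at most 18.4 FPKM.

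Gstm5 was the constant member. Its level was 102 FPKM in cell 9, the lowest, 206 FPKM at the median and 805 FPKM in cell 17, the highest, and it reached 100 FPKM in 23 of 23 cells (100%, interval from 85.2%). Only 405 genes (1.73% of the table) had a higher median. The next highest cell after cell 17 was cell 8 at 505 FPKM, and both were Kiss1 cells. About 373 to 4484 fragments per cell lay behind these values. The antisense gene 4933431E20Rik was at 13.1 FPKM in cell 2, 11.0 FPKM in cell 15, 10.2 FPKM in cell 18, 7.71 FPKM in cell 3, 6.75 FPKM in cell 16 and 2.09 FPKM in cell 11, and below 1 FPKM in the rest. The library kit is not stated to keep strand, so reads of the overlap cannot be told apart, and the antisense level was below that of Gstm5 in each of these cells.

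Gstm1 was present at a substantial level in most cells and nearly missing in a few. Its lowest value was 1.01 FPKM (cell 1), its median 54.1 FPKM and its highest 223 FPKM (cell 20). The values fell into 19 cells at 13.0 FPKM or more and 4 cells at 2.29 FPKM or less, with nothing between. The 4 low cells were cell 1 (1.01 FPKM), cell 9 (1.12 FPKM), cell 19 (1.27 FPKM) and cell 17 (2.29 FPKM), with about 9, 8, 11 and 16 fragments. Among them cells 17 and 19 were Kiss1 cells, cell 9 was a Sst cell and cell 1 had none of the peptides used here. After cell 20, the cells with most Gstm1 were cell 7 (190 FPKM), cell 22 (129 FPKM) and cell 4 (119 FPKM). The summed level of astrocyte markers was 13.0 FPKM in cell 20, 0.306 FPKM in cell 7, 1.23 FPKM in cell 22 and 8.65 FPKM in cell 4. In the 4 low cells it was 0.133 to 0.706 FPKM, and in cell 12, which had the highest sum (166 FPKM), Gstm1 was 109 FPKM. Summed oligodendrocyte markers were 0.861 FPKM in cell 20, 53.5 FPKM in cell 7, 82.8 FPKM in cell 22 and 33.8 FPKM in cell 4. In the low cells 1, 9, 19 and 17 they were 39.5, 27.3, 6.98 and 1.37 FPKM. The part of glial transcripts in the level of Gstm1 was not tested.

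Gstm6 was more evenly split into cells with and without it. It had 0.253 FPKM in cell 23, the lowest, a median of 33.1 FPKM and 336 FPKM in cell 10, the highest. In 16 cells it was at 18.7 FPKM or more and in 7 cells at 1.91 FPKM or less, so the 18 cells that reached 1 FPKM (78.3%, interval 56.3% to 92.5%) include 2 low cells. The 7 low cells were cells 6, 8, 9, 12, 19, 20 and 23, with about 1 to 12 fragments each. Cells 9 and 19 were low in both Gstm1 and Gstm6, whereas cells 1 and 17 held 24.8 and 121 FPKM of Gstm6 without a matching level of Gstm1. Cell 20 was the reverse, with the highest Gstm1 of all cells and 0.575 FPKM of Gstm6.

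Gstm7 and Gstm4 were held by fewer cells, and in these the levels were high. Gstm7 was listed at 0 in cells 4 and 9, had a median of 8.94 FPKM and a highest value of 198 FPKM (cell 20). It was at 35.4 FPKM or more in 11 cells (2, 5, 8, 10, 11, 15, 18, 19, 20, 21 and 22) and at 8.94 FPKM (cell 16) or less in 12. Its 15 cells at 1 FPKM (65.2%, interval 42.7% to 83.6%) therefore include 4 cells far below the rest. Of these, cell 16 had about 85 fragments, and cells 7, 14 and 17 had about 10, 4 and 17. Cell 16 thus had Gstm7 fragments although it falls below the 10 FPKM used in the counts further on. Gstm4 was listed at 0 in 5 cells, had a median of 0.307 FPKM and a highest value of 64.2 FPKM (cell 21). It was at 18.5 FPKM or more in 10 cells (2, 3, 4, 10, 11, 16, 18, 19, 21 and 22; 43.5%, interval 23.2% to 65.5%) and at 0.784 FPKM or less in 13, where it rested on 0 to 3 fragments. Of these members Gstm4 had the cleanest division, since no cell lay between 0.784 and 18.5 FPKM. A value of 0 for Gstm4 allows up to 3 fragments, worth 0.251 to 0.386 FPKM in these 5 cells, by counting error only.

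Gstm3 and Gstm2 stayed low throughout. Gstm3 was listed at 0 in cells 9 and 19, had a median of 6.29 FPKM and never exceeded 17.5 FPKM (cell 10), although 19 cells reached 1 FPKM (82.6%, interval 61.2% to 95.05%). Gstm2 was listed at 0 in 7 cells, had a median of 0.275 FPKM and reached 1 FPKM in cell 4 alone (2.82 FPKM; 4.35%, interval 0.110% to 21.9%). With each cell rescaled to a sum of 1000000, 5 of 23 cells (21.7%) reached a value of 1. Its values lay on whole multiples of a step, within 0.0209 of a fragment, so they could be read as fragments. There were 45 in all cells together, of which 13 were in cell 4 and 8 in cell 20, while 14 further cells had 1 to 3 fragments. At this depth 1 fragment of Gstm2 was worth 0.108 to 0.454 FPKM, so lower levels were not detectable.

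**Figure D2:**
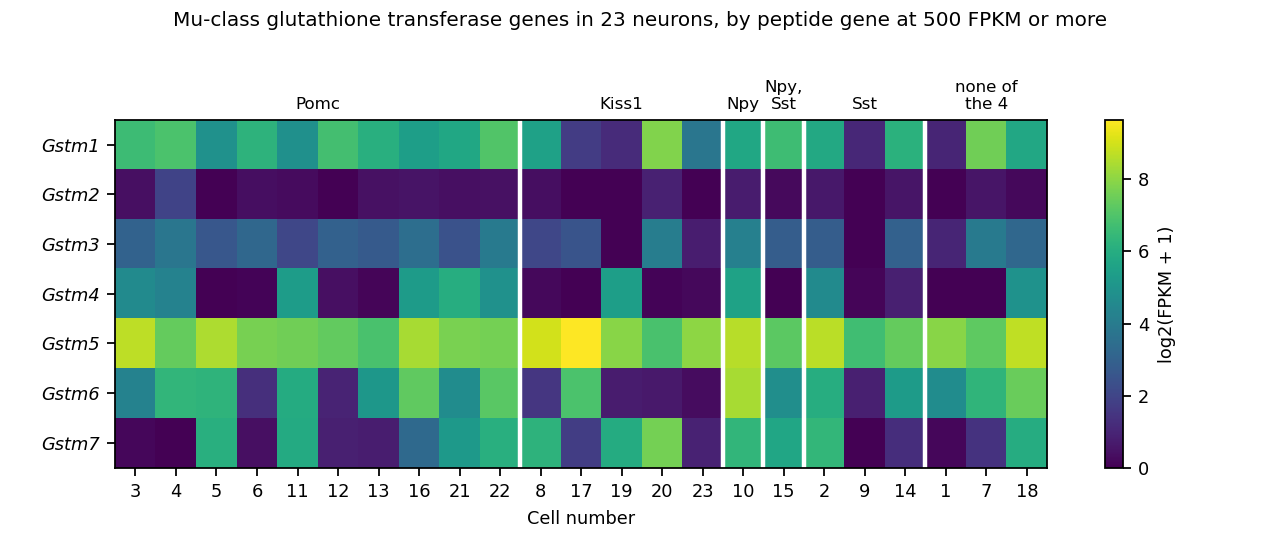
Level of each member (rows) in each of the 23 cells (columns, cell numbers below), as log2(FPKM + 1), with cells grouped by the peptide gene at 500 FPKM or more named above. Gstm5 is bright in every cell and Gstm2 is dark in all but cell 4. Gstm1, Gstm4, Gstm6 and Gstm7 switch between bright and dark among the Kiss1 cells and among the Sst cells. Among the Pomc cells Gstm4, Gstm6 and Gstm7 do so, whereas Gstm1 is at 10 FPKM or more in all 10.

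The low values of the switching members lay at a small percentage of the highest cell with the same title prefix. In the 7 cells without substantial Gstm6 they were 0.240% to 0.568% of the highest JCb5.2 cell and 0.147% to 0.385% of the highest JCb6 cell. For Gstm1 the 4 low values were 0.534% to 0.591% of the highest JCb5.2 cell and 0.569% to 1.03% of the highest JCb6 cell. Peptide genes that should be confined to their neurons gave a comparison, chosen after the values were seen. Sst, at 29792 FPKM in cell 15, was at 18.6 to 177 FPKM in the 11 JCb5.2 cells that were not Sst cells, 0.0625% to 0.594% of cell 15. In the 8 JCb6 cells, none of which was a Sst cell, Sst was listed at 0 in 7 and at 0.608 FPKM in cell 23. Npy was likewise at 3.06 to 20.6 FPKM in the 13 JCb5.2 cells that were not Npy cells, and listed at 0 in 7 of the 8 JCb6 cells. Other genes did not all follow this pattern. Gstm4 was listed at 0 in 4 JCb5.2 cells and 1 JCb6 cell, and Gstm7 in 2 JCb5.2 cells, although each prefix held cells with high levels of both. Low values of Gstm7 reached 4.51% of the highest JCb6 cell and 2.05% of the highest JCb5.2 cell, and those of Gstm4 reached 1.68% in JCb5.2 and 0.256% in JCb6 cells. Pomc in cells below its threshold was 0.267% to 4.32% of the highest JCb5.2 cell and 1.54% to 6.50% of the highest JCb6 cell, and Kiss1 was 0.0298% to 2.24% and 0.288% to 2.11% in the same order. Whether low values came from other cells was not tested, and for this reason the combinations and types below are counted at 10 FPKM.

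Summed over the family, the 7 members gave 104 FPKM in cell 9, the lowest, 396 FPKM at the median and 935 FPKM in cell 17, the highest. Gstm5 was the highest member in 21 cells, and Gstm1 was the highest in cell 7 (190 FPKM, against 152 FPKM of Gstm5) and cell 20 (223 FPKM, against 117 FPKM of Gstm5). The share of Gstm5 in the family sum was 21.1% in cell 20, 57.7% at the median and 98.1% in cell 9. The SD over cells of log2(FPKM + 1) was 0.76 for Gstm5 and 0.43 for Gstm2, whose median was 0.275 FPKM. It was 1.21 for Gstm3, 2.07 for Gstm1, 2.53 for Gstm4, 2.62 for Gstm6 and 2.78 for Gstm7. The listed values of these members thus spread more over the cells than those of Gstm5. How far this spread lay in the neurons rather than in the amplification of single cells was not tested. In single cells the other members took up to 43.4% (Gstm1, cell 7), 36.2% (Gstm6, cell 10), 35.6% (Gstm7, cell 20) and 16.5% (Gstm4, cell 21) of the sum, and Gstm3 and Gstm2 never more than 3.39% and 0.712%.

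**Figure D3:**
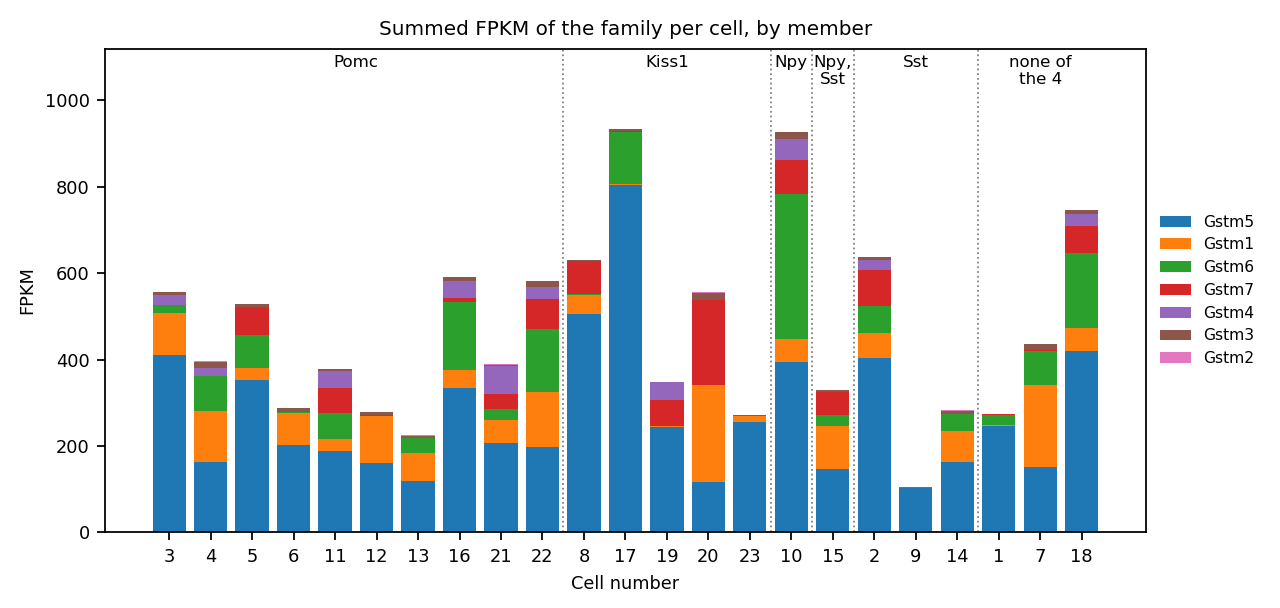
Summed FPKM of the family in each cell (bars, cell numbers below), divided by member, with cells grouped by peptide gene. Cells 17 and 10 have the highest sums, cell 9 is almost wholly Gstm5, and the Gstm1 part exceeds the Gstm5 part in cells 7 and 20.

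At 10 FPKM the 23 cells held 13 different combinations of members, 6 of which occurred in 1 cell each. The median cell held 4 members. The most frequent combination, in 4 cells, was Gstm1, Gstm4, Gstm5, Gstm6 and Gstm7, followed by Gstm1 and Gstm5 alone in 3 cells. Cell 9 held Gstm5 only, and 2 cells held 6 members. Taken in pairs, Gstm4 and Gstm6 were both at 10 FPKM in 9 cells and both below it in 6, with Gstm4 alone in 1 cell (cell 19) and Gstm6 alone in 7. Gstm6 and Gstm7 were together in 8 cells, both absent at this level in 4, Gstm6 alone in 8 and Gstm7 alone in 3. Neighbouring loci, as Gstm6 and Gstm7 are, were thus not held by the same cells throughout.

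Peptide types were set by a cell's level of Pomc, Kiss1, Npy or Sst at 500 FPKM or more. Pomc gives the melanocortin peptides that promote satiety, Kiss1 gives kisspeptin of the neurons that drive reproductive hormone release, Npy is the hunger-promoting peptide of AgRP neurons, and Sst is somatostatin. There were 10 Pomc cells, 5 Kiss1 cells, 2 Npy cells and 4 Sst cells, with cell 15 both Npy and Sst, and 3 cells had none of the 4. The lowest Pomc cell was at 599 FPKM (cell 16) and the highest cell outside at 412 FPKM (cell 7). The corresponding values were 895 and 62.5 FPKM for Kiss1, 2539 and 20.6 FPKM for Npy, and 903 and 177 FPKM for Sst. Of other peptides that mark these neurons, Tac2 was at 67.0 to 1814 FPKM and Pdyn at 128 to 1117 FPKM in the 5 Kiss1 cells, and Agrp was at 39.7 and 433 FPKM in Npy cells 10 and 15. Pdyn was not restricted to Kiss1 cells: it was also at 1031, 878, 468 and 412 FPKM in Pomc cells 3, 16, 5 and 21 and at 421 FPKM in cell 18.

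In the 10 Pomc cells Gstm5 and Gstm1 were both at 10 FPKM in all 10. Gstm5 was 118 to 411 FPKM with a median of 199.98, and Gstm1 was 27.7 to 129 FPKM with a median of 70.5. Gstm6 was at 10 FPKM in 8 of the 10 (0.948 to 158 FPKM, median 46.7), Gstm4 in 6 (0 to 64.2 FPKM, median 20.9) and Gstm7 in 4 (0 to 67.5 FPKM, median 4.88). At 10 FPKM Pomc cells thus shared Gstm1 and Gstm5 and differed in Gstm4, Gstm6 and Gstm7. Of all 10 Gstm4 cells, 6 were Pomc cells, and Pomc cells were 10 of the 23 cells. Gstm3 was 3.12 to 14.2 FPKM, above 1 FPKM in all 10 and at 10 FPKM in 3.

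The 5 Kiss1 cells differed widely among themselves. Gstm1 was 223 FPKM in cell 20, 45.6 FPKM in cell 8, 13.0 FPKM in cell 23, 2.29 FPKM in cell 17 and 1.27 FPKM in cell 19. Gstm6 was 121 FPKM in cell 17, 1.91 FPKM in cell 8, 0.664 FPKM in cell 19, 0.575 FPKM in cell 20 and 0.253 FPKM in cell 23. Thus 3 of the 5 held Gstm1 and a different cell, cell 17, was alone in holding Gstm6. Gstm7 was 198 FPKM in cell 20, 75.3 FPKM in cell 8 and 59.9 FPKM in cell 19, and 2.41 and 0.873 FPKM in cells 17 and 23. Gstm4 was 41.3 FPKM in cell 19 and at most 0.164 FPKM in the other 4. Gstm5 was 117 FPKM in cell 20, 244 FPKM in cell 19, 256 FPKM in cell 23, 505 FPKM in cell 8 and 805 FPKM in cell 17, so this type spanned nearly the whole range of the 23 cells.

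The 2 Npy cells both held Gstm1 (53.4 FPKM in cell 10 and 99.0 FPKM in cell 15), Gstm5 (393 and 148 FPKM in the same order), Gstm6 (336 and 26.0 FPKM) and Gstm7 (80.8 and 51.3 FPKM). They differed in Gstm4, which was 46.7 FPKM in cell 10 and listed at 0 in cell 15. Among the 4 Sst cells, cell 9 stood alone: Gstm1 was 1.12 FPKM there, against 56.3, 70.6 and 99.0 FPKM in cells 2, 14 and 15, and Gstm6 was 0.806 FPKM, against 64.3, 38.3 and 26.0 FPKM. Gstm7 was 82.8 and 51.3 FPKM in cells 2 and 15, 1.39 FPKM in cell 14 and 0 in cell 9, and Gstm4 was held by cell 2 (23.9 FPKM). Of the 3 cells with none of these peptides, cell 18 held Gstm1, Gstm4, Gstm6 and Gstm7 besides Gstm5, cell 7 held Gstm1 and Gstm6, and cell 1 held Gstm6 (24.8 FPKM).

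By median, Gstm1 was highest in Npy cells (76.2 FPKM), then Pomc (70.5), Sst (63.5), cells of no type (54.1) and Kiss1 (13.0). For Gstm5 the order was Npy (270.4 FPKM), Kiss1 (256), no type (247), Pomc (199.98) and Sst (156). For Gstm6 it was Npy (181 FPKM), no type (78.9), Pomc (46.7), Sst (32.2) and Kiss1 (0.664). Gstm4 ran from Npy (23.3 FPKM) and Pomc (20.9) to Sst (0.444), Kiss1 (0.154) and no type (0), and Gstm7 from Npy (66.0 FPKM), Kiss1 (59.9) and Sst (26.3) to Pomc (4.88) and no type (1.70). Neighbours in these orders did not differ beyond their spread: the ranges of all 32 neighbouring pairs, counting the 7 members and the family sum, overlapped. Over all pairs of types, neighbours or not, the ranges of the 72 pairs that share no cell overlapped as well, and the 8 pairs of Npy with Sst share cell 15. With 2 to 10 cells a type from 2 mice, overlap of ranges does not show that types were alike.

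The title prefixes also cut across the members. At 10 FPKM Gstm4 was held by 5 of 15 JCb5.2 cells and 5 of 8 JCb6 cells, Gstm7 by 6 and 5, Gstm6 by 11 and 5, and Gstm1 by 13 and 6. Median Gstm5 was 188 FPKM in JCb5.2 and 250.2 FPKM in JCb6 cells, and the median family sum was 378 and 569 FPKM in the same order. The ranges of the prefixes overlapped for every member. Both Npy cells and all 4 Sst cells were JCb5.2 cells, and 4 of the 5 Kiss1 cells were JCb6 cells, so prefix and these types cannot be told apart.

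Gstm3 followed other members. Its Pearson correlation with Gstm1, on log2(FPKM + 1) over 23 cells, was 0.85, and none of 9985 genes outside the family had a higher correlation with either of them. The next pairs were Gstm2 and Gstm3 (0.59), Gstm1 and Gstm2 (0.56) and Gstm3 and Gstm6 (0.54), and every other pair was at 0.44 or lower. Pairs with Gstm2 rest on its 45 fragments in all cells together. All points share the cell's library and depth. These correlations are descriptions of the 23 cells.

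On the FPKM scale Gstm3 was close to a fixed weighted sum of Gstm1 and Gstm6, a relation noticed in these values and then fitted to the same values. With weights that were not allowed below 0, the best sum was 6.89% of Gstm1 plus 3.87% of Gstm6. Its r squared was 0.954, against 0.477 for Gstm1 alone and -0.208 for Gstm6 alone, where a value below 0 means a poorer match than the mean. In 21 of 23 cells Gstm3 lay within 2 FPKM of the sum. The largest distance was 3.20 FPKM, in cell 6, where Gstm3 was 8.38 FPKM and the sum 5.18 FPKM.

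Values of single cells are set beside the fitted sum here. In cell 20, with 223 FPKM of Gstm1 and 0.575 FPKM of Gstm6, Gstm3 was 16.02 FPKM and the sum 15.4 FPKM. In cell 17, with 2.29 FPKM of Gstm1 and 121 FPKM of Gstm6, Gstm3 was 4.70 FPKM and the sum 4.82 FPKM. In cell 10, with 53.4 FPKM of Gstm1 and the highest Gstm6, Gstm3 was 17.5 FPKM and the sum 16.7 FPKM. Cells 9 and 19, low in both, had Gstm3 listed at 0 and sums of 0.109 and 0.113 FPKM. Gstm3 was thus above 0 in the 21 cells in which Gstm1 or Gstm6 was at 10 FPKM or more, and listed at 0 in the other 2.

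Of the 15 pairs of other members, the next best for Gstm3 was Gstm1 with Gstm4, at an r squared of 0.639. For the other 6 members the best pair gave 0.597 (Gstm1), 0.463 (Gstm6), 0.273 (Gstm2), 0.187 (Gstm7), 0.161 (Gstm4) and -0.829 (Gstm5). The best pairs for Gstm1, Gstm6 and Gstm2 each included Gstm3, so they are not separate from its own relation. The fits had no constant term, which can put a member with a high level in every cell, such as Gstm5, below 0. These values are therefore no independent yardstick for Gstm3. Gstm1 and Gstm6 are the same 2 members with which Gstm3 shared the 112-base and 125-base runs. All exact 50-base windows that Gstm3 shared with other members were shared with these 2. Whether reads of Gstm1 and Gstm6 were counted for Gstm3 was not tested, and the level of Gstm3 is therefore uncertain in every cell. The same holds for the 11 windows that Gstm2 shares with Gstm1. How reads were divided with annotated genes other than the members, such as Gm12499 for Gstm2, was not tested either.

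**Figure D4:**
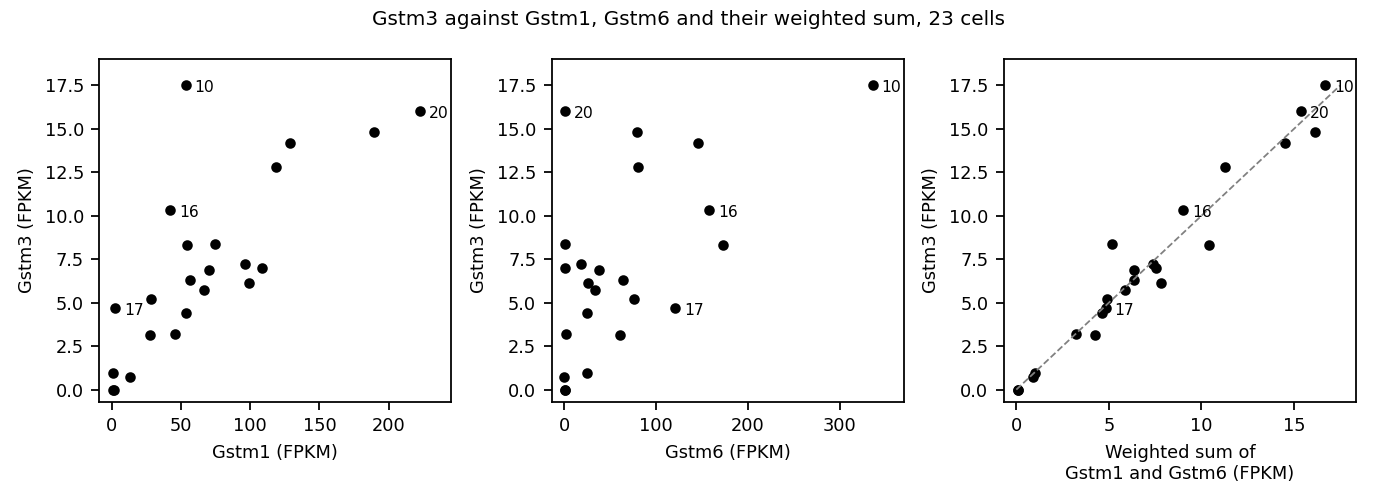
Gstm3 (vertical axes, FPKM) against Gstm1, Gstm6 and the sum of 6.89% of Gstm1 and 3.87% of Gstm6 (horizontal axes, FPKM), 1 point per cell, with cells 10, 16, 17 and 20 numbered and a dashed line of equal values in the right panel. Cells 10 and 17 lie above the trend with Gstm1, cell 20 lies far from the trend with Gstm6, and the points lie close to the line for the sum.

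The genes outside the family with the most similar pattern over the 23 cells were named for each member that reached 1 FPKM in at least 5 cells. For Gstm1 they were Srrt, a partner of the nuclear cap-binding complex (r 0.76), Psme2, a proteasome activator subunit (0.73), and Cbr1, carbonyl reductase (0.72). For Gstm3 they were Uqcrh, a subunit of respiratory complex III (0.68), Psme2 (0.66) and Vps18, a vesicle tethering subunit (0.66). For Gstm5 they were Prps2, which makes phosphoribosyl pyrophosphate (0.73), and the ribosomal protein genes Rps7 (0.72) and Rps25 (0.70). Gstm4 had Tyw1, a tRNA-modifying enzyme (0.79), Prkcdbp, a caveolar protein (0.71), and Msantd1 (0.71). Gstm6 had Dph1, of diphthamide synthesis (0.72), Abhd6, a monoacylglycerol lipase (0.69), and the kinase gene Stk32a (0.66), and Gstm7 had Tmem127 (0.73), Ctu2, of tRNA thiolation (0.71), and Git2, a GTPase-activating protein (0.70). These lists depended heavily on the choice of correlation and cells: only 2 of the 18 named genes kept their place with Spearman's rho, and 2 and 0 with JCb5.2 and JCb6 cells alone.

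Around the family, 48 of 58 other genes of the glutathione and NRF2 lists reached 1 FPKM in at least 1 cell, where 63.7% of all genes did, and 10 reached it in none. In at least 12 cells 25 did so, where 27.8% of all genes did, and in all 23 cells 11 did so, where 7.2% of all genes did. The counts per list that follow are to be read against the same 27.8%. Among 14 other cytosolic transferases 4 reached 1 FPKM in at least 12 cells, a share near that of all genes. Gstp1 and Gstp2, the Pi class, had medians of 529 FPKM (251 to 658) and 263 FPKM (126 to 343), and Gstz1, an enzyme of tyrosine breakdown, 37.5 FPKM (0.511 to 129). Gstp1 and Gstp2 are near-identical in sequence, and how their reads were divided is uncertain. The Pi class thus had the highest median FPKM of the transferases and Gstm5 came next. Alpha-class Gsta1 and Gsta2 and Theta-class Gstt3 and Gstt4 reached 1 FPKM in no cell.

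Membrane and mitochondrial transferases were low. Of these 5 genes, Mgst3 reached 1 FPKM in 13 cells (median 1.57 FPKM, highest 7.70 FPKM), Mgst1 in 1 cell (5.96 FPKM), and Gstk1 was listed at 0 in all 23. Of 12 glutathione peroxidases and glutaredoxins, 7 reached 1 FPKM in at least 12 cells. Gpx3, the secreted peroxidase, had a median of 1137 FPKM (562 to 1967), Gpx4, which reduces lipid hydroperoxides in membranes, 559 FPKM (25.2 to 845), and Glrx5, a mitochondrial glutaredoxin, 100.07 FPKM (1.21 to 399). Gpx3 and Gpx4 had the highest median FPKM of all genes in the 6 lists.

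Of 11 genes of glutathione synthesis and recycling, 5 reached 1 FPKM in at least 12 cells and 0 in all 23. Gclc and Gclm, the subunits of the rate-limiting ligase, did so in 9 and 13 cells, and Gss, the second enzyme of synthesis, in 6. Ggt7, of the gamma-glutamyltransferase family, had a median of 36.6 FPKM, and Slc3a2 and Slc7a11, the subunits of the cystine transporter, 16.8 and 4.40 FPKM. Of 7 genes of conjugate export and the glyoxalase system, 3 reached 1 FPKM in at least 12 cells, namely Hagh (median 117 FPKM) and Glo1 (79.9 FPKM), which clear methylglyoxal with glutathione, and Abcc5 (13.5 FPKM), an export pump. Of 10 NRF2 genes, among them Gstm1, 6 did so. Txn1 and Prdx1, the thioredoxin and peroxiredoxin of the cytosol, had medians of 146 and 106 FPKM. Nfe2l2, which encodes NRF2, reached 1 FPKM in 2 cells, and its inhibitor Keap1 in 21. Of other genes in the list, Gstm1, Txn1 and Prdx1 reached 1 FPKM in all 23 cells, Txnrd1 in 19, Srxn1 in 15, G6pdx in 10, Hmox1 in 4 and Nqo1 in 2.

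**Figure D5:**
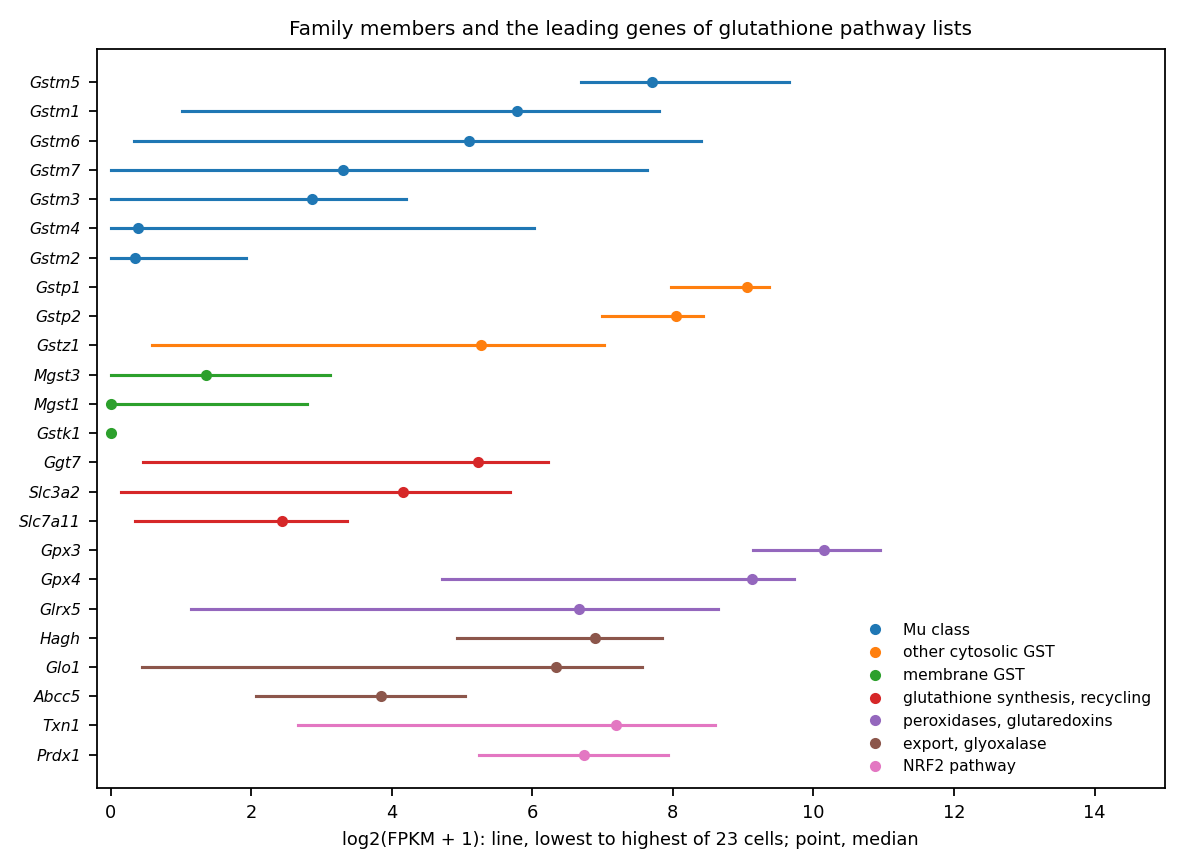
Median (points) and lowest to highest value over 23 cells (lines), as log2(FPKM + 1), for the 7 members and for the leading genes of 6 glutathione and NRF2 lists; Gstm1, also in the NRF2 list, is drawn once. Gstm5, Gstp1, Gpx3 and Gpx4 have high medians, and the lines of Gstm1, Gstm4, Gstm6 and Gstm7 reach from near 0 to high values.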

How the data were processed

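Single GFP-positive cells were amplified with SmartSeq2 and turned into libraries with NuGen's Ovation Rapid kit, as stated in the labels' protocols. CASAVA 1.8, TopHat, Cufflinks and mm10 are named in the submitters' processing notes; nothing used here gives the annotation, the filters or the read length. FPKM per gene and cell were deposited as 1 table.

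Of its 23896 rows, 12 leftover spreadsheet rows without a gene and 286 identical copies were left out, 27 names turned into dates were kept apart, and rows of 124 symbols were summed, which gave 23400 genes. FPKM divides fragments by length and by library total, so levels of different genes are comparable, and a few abundant peptide transcripts lower all other values of a cell. Fragments per cell were estimated from the most frequent low value of FPKM times transcript length, under 0.5 FPKM, in 3330 genes with 1 GENCODE transcript of at least 800 bases. Locus coordinates are those of the table, counted from 1; exon counts, strand and sequences come from the GENCODE transcript closest to each locus.

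Each sample is 1 cell, so no test was run and no p-value is given. Correlations used log2(FPKM + 1). Genes outside the family were compared if at 1 FPKM in at least 5 cells, with loci of at least 300 bp, whereas pairs of members were not filtered. The weighted sum was a non-negative least-squares fit without a constant term. Named genes are the members, the peptide genes, the 3 genes of each list at 1 FPKM in the most cells (ties by median), and the 3 most similar genes of each member; other genes were named after their values were seen. The members and lists were chosen with earlier results of these data known. Depth, window, fit and similarity steps were tested on simulated data. The depth simulation used the same transcript lengths as the estimate, so it could not show an error from the unknown effective lengths. Tools were Biopython 1.88, matplotlib 3.10.9, scipy 1.17.1, pandas 2.3.3, numpy 2.4.6 and Python 3.11.15. Alternatives were other thresholds, scaling each cell to a sum of 1000000, the highest row of each symbol, other type cutoffs, fragment shares, other correlations, and each title prefix alone.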

Additional observations from a re-analysis of the deposited data

How the results depend on the processing

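Thresholds moved the counts of cells more than scaling did. At 0.1 FPKM the share of cells was 69.6% for Gstm2 and for Gstm4, 100% for Gstm6 and 91.3% for Gstm7. At both 5 and 10 FPKM it was 82.6% for Gstm1 and 0% for Gstm2, and at 10 FPKM it was 26.1% for Gstm3. With each cell rescaled to a sum of 1000000 it was 95.7% for Gstm6 and 21.7% for Gstm2. In JCb6 cells alone it was 0% for Gstm2 and 87.5% for Gstm7. The share of cells with Gstm5 did not move in any of these settings, and Gstm5 had the largest part of the family in 20 cells instead of 21 when FPKM was multiplied by transcript length. Of the 18 similar genes, 2 were kept with Spearman's rho, 2 in JCb5.2 cells alone and 0 in JCb6 cells alone. In alternatives added after seeing the data, 4 other members shared a window with Gstm3 when up to 2 mismatches were allowed, against 2 without. The r squared of Gstm3 as a sum of Gstm1 and Gstm6 was 0.946 without cell 10, 0.947 without cell 20, 0.941 and 0.976 in JCb5.2 and JCb6 cells alone, and 0.958 after rescaling. Of the other values, 10 moved by more than their interval, all of these shares of cells of a peptide type, and 107 did not. The 107 include the correlation of Gstm1 and Gstm3 under other settings. With 2 to 10 cells a type the intervals are wide, so this count says little about stability. These shares by type start from members at 1 FPKM, whereas the types above are counted at 10 FPKM. Other type cutoffs and rescaling were not run at 10 FPKM. Of 28 pairs of type and member, 19 had most cells of the type at 1 FPKM. At 10 FPKM 14 pairs did, and after rescaling 21. For Gstm3 in Npy cells the share went from 100% to 50% at 10 FPKM, within an interval from 15.8%. Levels below the worth of 1 fragment could not be seen at this depth. No paired analysis was possible because the cells form 1 group and no test was run.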
